A study of Rattus norvegicus with 7 samples.

Results

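The genes described here encode ligands, receptors, an inhibitor and a target of the transforming growth factor beta (TGF-beta) family in the rat meibomian gland, the lipid-secreting gland of the eyelid. They were chosen by symbol from a list of 10: the ligand genes Tgfb1, Tgfb2, Tgfb3, Inhba, Bmp2 and Bmp4, the receptor genes Tgfbr1 and Tgfbr2, the inhibitor gene Smad7 and the target gene Tgfbi. The deposited tables gave values for 9 of them among 17246 genes, and Bmp2 was not analysed here. Ligands of this family are secreted as dimers, and those of the TGF-beta branch are held in a latent complex until released in the matrix. A type II receptor such as TGFBR2 binds the ligand and phosphorylates a type I receptor such as TGFBR1, which then phosphorylates SMAD proteins that enter the nucleus with SMAD4. TGF-beta is known for restraining keratinocyte growth and for driving matrix production by fibroblasts, activins for wound repair, and BMPs for patterning hair follicles and related skin glands.

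Wild-type female Sprague-Dawley rats aged 3 months were compared, 4 controls listed as untreated and 3 animals given ultraviolet B light (UVB). Irradiated animals had the upper lid shaved and received 300 mJ/cm2 in a 5 min session on each of 5 days. Whether the controls were shaved, and how long after the last exposure the glands were taken, are not given in the sources used here. Letters (control a, b, c and d; UVB a, b and c) tell the libraries apart and pair none of them, since the columns name a group and no replicate number. The labels do not say that each library came from a separate animal, so p-values measure only the spread between these samples.

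The libraries held 20680237 to 28784941 counts. Of 13709 genes that passed a filter on low counts, 13.0% were called different between the groups (edgeR quasi-likelihood test, adjusted p under 0.05), 6.30% higher and 6.74% lower after UVB, with a median log2 fold change of -0.0058. Genes of lipid-secreting meibocytes were among the most abundant, with a mean of 27410 TPM (a level corrected for transcript length and library size) for the desaturase gene Scd and 9797 TPM for the wax synthase gene Awat2. Genes of basal keratinocytes, fibroblasts, smooth muscle, endothelium, skeletal muscle and blood-derived cells were also present, so each value below is a sum over many cell types. In such bulk tissue, fewer cells of a type and less RNA per cell cannot be told apart.

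The sequence before the start of Tgfb1 is shown because it was the only member called by edgeR, and that of Smad7 because its product is the feedback inhibitor of the pathway. RefSeq promoters of rat assembly GRCr8 were found for 9 of the 10 listed genes. The 250 bases before the start lie at chr1:90324062-90324311 (plus strand) for Tgfb1 and at chr18:71263258-71263507 (plus strand) for Smad7. Capitals mark matches to any of 5 motifs searched on both strands: the SMAD palindrome GTCTAGAC, the short SMAD motif CAGAC, the GC-rich SMAD motif GGCGCC, the AP-1 motif TGANTCA and the E-box CACGTG.
Tgfb1: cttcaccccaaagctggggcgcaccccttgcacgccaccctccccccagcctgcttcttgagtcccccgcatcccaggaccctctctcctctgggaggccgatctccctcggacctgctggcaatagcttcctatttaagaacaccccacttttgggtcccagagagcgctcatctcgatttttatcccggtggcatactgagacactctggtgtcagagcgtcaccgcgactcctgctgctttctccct
Smad7: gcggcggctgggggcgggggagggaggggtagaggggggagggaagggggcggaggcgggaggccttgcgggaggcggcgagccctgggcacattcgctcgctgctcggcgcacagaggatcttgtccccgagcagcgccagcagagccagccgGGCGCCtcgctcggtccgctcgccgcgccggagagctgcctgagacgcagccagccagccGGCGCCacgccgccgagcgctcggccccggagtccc
No letters are capitals in the Tgfb1 window, which held 60.0% G and C. The Smad7 window held 78.0% G and C and 2 matches to GGCGCC.

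Shorter stretches of 30 bases show matches upstream of other members, each on the minus strand except that of Tgfbr1. They lie at chr13:100792897-100792926 for Tgfb2 (E-box), chr15:22102116-22102145 and chr15:22101951-22101980 for Bmp4 (short SMAD motif), chr5:66449148-66449177 for Tgfbr1 and chr17:7990208-7990237 for Tgfbi (GC-rich SMAD motif).
Tgfb2: cactcatccacaCACGTGtggaaggcaggg
Bmp4 upstream site: ggggacaactccCAGACggctggggctcca
Bmp4 site nearer the start: aaaacagagcctGTCTGctccagagtctca
Tgfbr1: ggagtataGGCGCCcagcggtgagggggcg
Tgfbi: tgtggcctgggaGGCGCCggctgcccttcc
Bmp4 also held 1 E-box, and no match to the 5 motifs was found for Tgfb3, Inhba or Tgfbr2. Among windows of the same length before 33469 gene starts, 8.69% held GGCGCC, 42.9% CAGAC, 5.59% the E-box, 6.34% the AP-1 motif and 0.173% the palindrome. A match is a description of letters and not of binding.

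Of the TGF-beta ligand genes, Tgfb1 rose after UVB, while the values of Tgfb3 were higher and those of Tgfb2 mostly lower without passing the test. Tgfb1 (NCBI gene 59086) encodes the ligand isoform found in most tissues and in immune cells. It measured 16.0, 18.0, 16.2 and 18.4 CPM in the 4 controls (read counts scaled to library size) and 23.8, 21.6 and 22.6 CPM after UVB. Every UVB library lay above every control. The means were 17.2 ± 1.22 CPM (SD, n = 4) and 22.7 ± 1.10 CPM (SD, n = 3), a 1.32-fold rise with a log2 fold change of 0.40 (standard error 0.086, edgeR adjusted p = 0.0187). The call rested on 342 to 586 counts per library and was lost without control c (log2 fold change 0.37, adjusted p = 0.0584) and without UVB a (0.37, adjusted p = 0.0527), with adjusted p-values from 0.00152 to 0.0584 over 16 alternatives.

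Tgfb3 encodes an isoform known from palate fusion and wound healing. It measured 21.4, 26.9, 21.9 and 23.6 CPM in the controls and 28.0, 40.0 and 27.9 CPM after UVB. The groups did not overlap, UVB b stood well above the other UVB libraries, and UVB a and c were just above control b. The log2 fold change of 0.45 (standard error 0.14, 95% interval 0.13 to 0.77, edgeR adjusted p = 0.0665) did not pass, and it was 0.26 without UVB b (adjusted p = 0.178). DESeq2 called Tgfb3 (0.45, adjusted p = 0.0262, against a highest value of 0.178 over the 16 alternatives).

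Tgfb2 encodes an isoform that depends on the co-receptor betaglycan for efficient binding. Its values were 9.52, 13.8, 11.0 and 15.4 CPM in the controls and 10.8, 6.89 and 7.94 CPM after UVB. UVB a lay inside the control range, while UVB b and c lay below it. The log2 fold change was -0.55 (standard error 0.20, 95% interval -1.01 to -0.09, edgeR adjusted p = 0.112), not a call, and it ran from -0.75 without UVB a to -0.41 without UVB b. RefSeq places a small nucleolar RNA gene inside Tgfb2, and how the authors counted strand is not given in the sources used here.

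**Figure D1:**
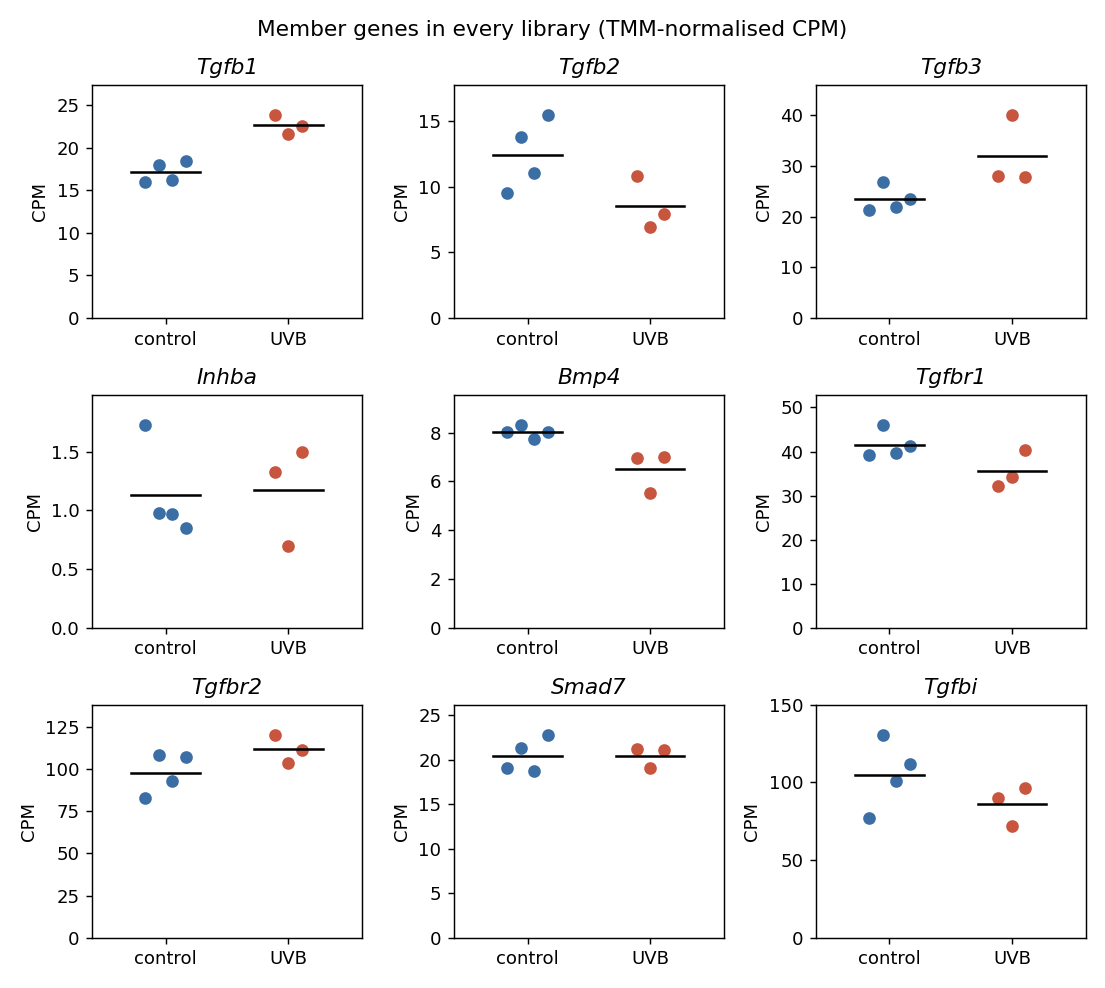
TMM-normalised CPM of the 9 member genes, one panel per gene, with the y axis from 0. Points are libraries (control n = 4, UVB n = 3) and lines are group means; the groups do not overlap for Tgfb1, Tgfb3 and Bmp4.

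The make-up of the TGF-beta ligand transcripts was compared on the TPM scale, where genes of different length can be set side by side. Tgfb1 made up 52.1% to 55.6% of the summed TPM of the 3 ligand genes in controls and 52.0% to 60.1% after UVB. Tgfb2 held 11.7%, 13.9%, 12.3% and 15.8% in the controls and 9.34%, 5.67% and 7.34% after UVB, a lower share in every UVB library than in any control. The mean share of Tgfb2 was 13.4% ± 1.83 (SD, n = 4) for the controls and 7.45% ± 1.84 (SD, n = 3) for the UVB libraries. Tgfb3 held 30.4% to 34.0% in controls and 30.8%, 42.4% and 32.5% after UVB, with UVB b apart. The controls had a mean summed TPM of 38.8 ± 3.60 (SD, n = 4) and the UVB libraries one of 48.7 ± 2.15 (SD, n = 3), also without overlap. These shares were formed after the single genes had been seen and are given as descriptions with no test.

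**Figure D2:**
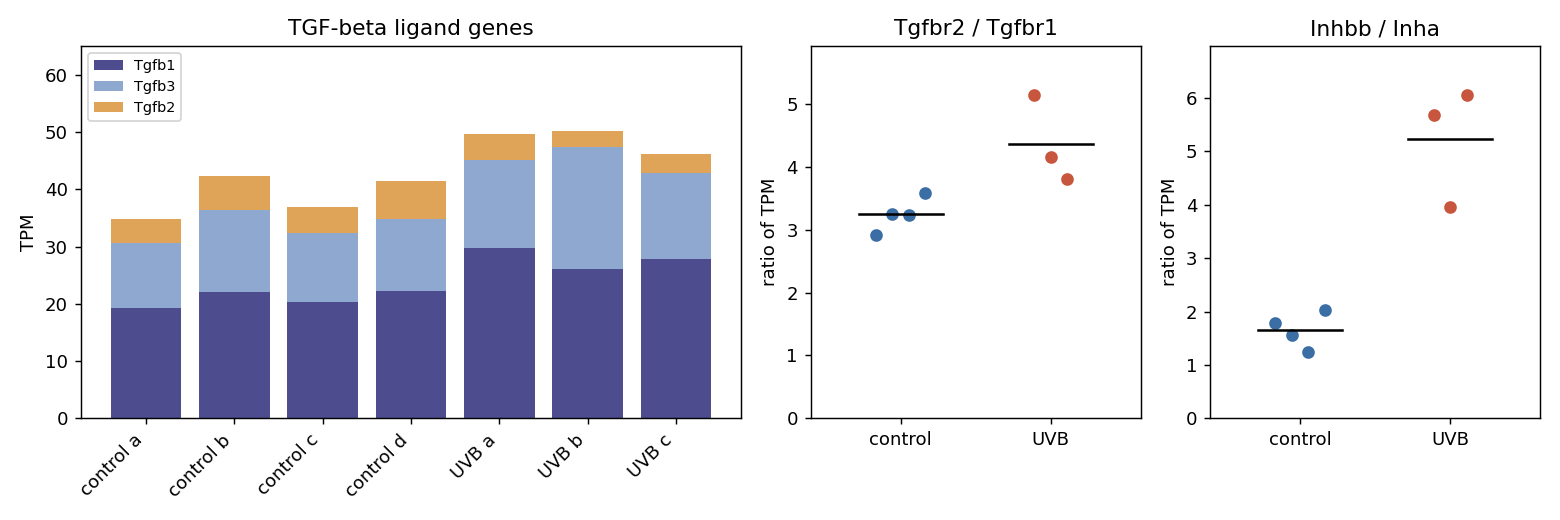
Left, stacked TPM of Tgfb1, Tgfb3 and Tgfb2 in each library; the Tgfb2 segment takes 11.7% to 15.8% of the bar in controls and 5.67% to 9.34% after UVB. Middle and right, the ratio of Tgfbr2 to Tgfbr1 TPM and of Inhbb to Inha TPM per library (points; lines are group means), with no overlap between groups in either.

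Inhba, which encodes the subunit of activin A, a ligand known from skin wounds, was scarce. It measured 1.73, 0.980, 0.966 and 0.855 CPM in the controls and 1.33, 0.697 and 1.50 CPM after UVB, from 18 to 39 counts. Control a was the highest of the 7 libraries and UVB b the lowest. The log2 fold change was 0.06 (standard error 0.36, edgeR adjusted p = 0.933), with a 95% interval of -0.74 to 0.86. Changes of moderate size in either direction were therefore not detectable in these libraries. The estimate changed sign without control c (-0.02), control d (-0.05), UVB a (-0.03) or UVB c (-0.17).

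Bmp4, a BMP ligand of the mesenchyme around skin appendages, measured 8.03, 8.31, 7.73 and 8.03 CPM in the controls and 6.97, 5.54 and 7.01 CPM after UVB. The 4 controls were close together and every UVB library lay below them. The log2 fold change of -0.30 (standard error 0.13, 95% interval -0.59 to -0.01, edgeR adjusted p = 0.151) did not pass the threshold, and it was -0.19 without UVB b. A long noncoding RNA gene overlaps Bmp4 in RefSeq.

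The receptor genes had estimates in opposite directions, and neither passed. Tgfbr1, the type I receptor gene, measured 39.1, 46.0, 39.6 and 41.2 CPM in the controls and 32.2, 34.3 and 40.3 CPM after UVB, with UVB c inside the control range. Its log2 fold change was -0.22 (standard error 0.093, 95% interval -0.43 to -0.01, edgeR adjusted p = 0.152). Tgfbr2, the type II receptor gene, measured 82.8, 108, 93.0 and 107 CPM in the controls and 120, 103 and 111 CPM after UVB, with UVB b inside the control range. Its log2 fold change was 0.19 (standard error 0.10, 95% interval -0.03 to 0.41, edgeR adjusted p = 0.235). The ratio of Tgfbr2 to Tgfbr1 on the TPM scale was 2.91, 3.24, 3.23 and 3.59 in the controls and 5.14, 4.15 and 3.80 after UVB, so that every UVB library had the higher ratio. This ratio, too, was formed after the values were seen and has no test.

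Smad7, induced by the pathway and acting against its receptors, had nearly equal group means. It measured 19.1, 21.3, 18.7 and 22.8 CPM in the controls and 21.2, 19.1 and 21.1 CPM after UVB, all within the control range. Its log2 fold change was -0.00027 (standard error 0.095, edgeR adjusted p = 0.999), with a 95% interval of -0.21 to 0.21. Tgfbi, which encodes a matrix protein induced by TGF-beta, was the most abundant member on the TPM scale in both groups. It measured 77.3, 131, 101 and 112 CPM in the controls and 89.7, 72.0 and 96.1 CPM after UVB. Only UVB b lay below the lowest control, control a. The log2 fold change was -0.29 (standard error 0.17, 95% interval -0.69 to 0.11, edgeR adjusted p = 0.310), and it was -0.41 without control a (adjusted p = 0.0755) and -0.17 without control b (0.542) or UVB b (0.617).

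**Figure D3:**
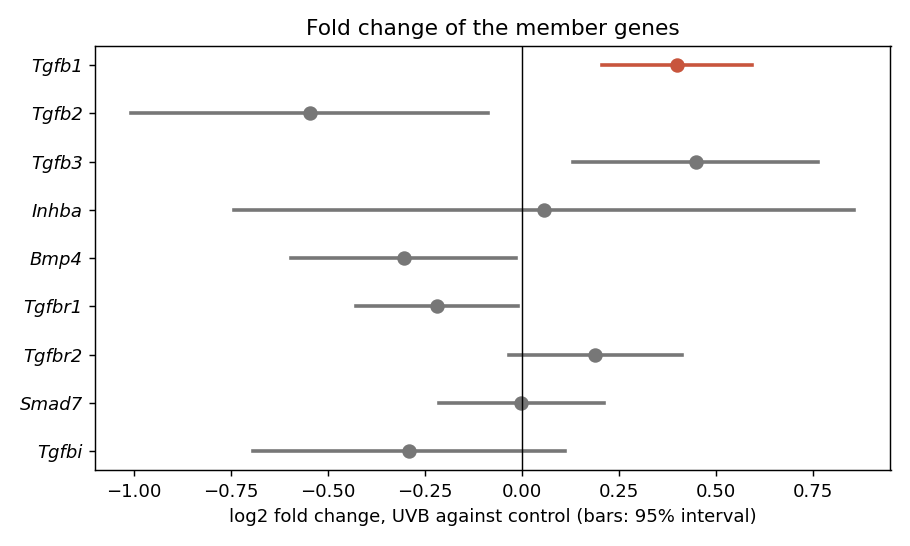
Log2 fold change of the 9 member genes, UVB against control, from the edgeR fit over all 13709 genes; bars are 95% intervals, not adjusted for the number of genes. Tgfb1 (0.40, coloured) was called at an adjusted p under 0.05, and the other 8 (grey) were not.

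Read together, 1 of the 9 members was called, or 11.1%, near the 13.0% of all genes tested. DESeq2 called 2 of the 9 (Tgfb1 and Tgfb3) beside 17.9% of all genes, and limma-voom 1 beside 13.2%. The groups did not overlap for 3 of the 9 (33.3%), against 26.6% of all genes. An unadjusted p under 0.05 was reached by 5 of the 9 (Tgfb1, Tgfb2, Tgfb3, Bmp4 and Tgfbr1), against 29.5% of all genes. The median log2 fold change of the members was -0.00027. All 9 passed the filter on low counts, and their counts were whole numbers in every library.

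On the TPM scale the control levels ranked Tgfbi (66.3 ± 14.1 TPM, SD, n = 4), Tgfbr2 (34.6 ± 4.26), Tgfb1 (21.0 ± 1.42), Tgfb3 (12.6 ± 1.29), Tgfbr1 (10.6 ± 0.772), Smad7 (10.5 ± 1.14), Bmp4 (6.46 ± 0.435), Tgfb2 (5.25 ± 1.15) and Inhba (1.29 ± 0.444). Ranges of Tgfb3 and Tgfbr1, of Tgfbr1 and Smad7, and of Bmp4 and Tgfb2 overlapped among the controls, while other neighbours in this order were apart. After UVB the order was the same except that Smad7 (10.04 ± 0.736 TPM, SD, n = 3) stood before Tgfbr1 (9.17 ± 1.05), with overlapping ranges. Tgfb3 (17.2 ± 3.50 TPM, SD, n = 3) was then apart from Smad7, the next below it.

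Genes around the members were taken from a list of 122 in 9 roles, of which 115 were in the tables and 99 passed the filter. The list was chosen with earlier results of these data known, so its share of calls is a description and not a test. Of the 99, 16 were called higher and 11 lower after UVB, 27.3% in all beside 13.0% of all genes tested, and the median log2 fold change was 0.04. The groups did not overlap for 37 (37.4%, against 26.6%). The count rested on single libraries: it was 15 without control b, 12 without control c and 8 without control d, and 13 without UVB a, 14 without UVB b and 16 without UVB c, while 6.27% to 8.74% of all tested genes were called in those fits. It was 24 without control a, where 13.8% of all genes were called. In all 3 fits on TPM values, Ltbp2, Ltbp4, Fbn1, Inhbb, Bmp1, Bmp6, Fstl1, Nbl1, Sostdc1 and Nedd4l, described below, lost their calls, and limma-voom did not call Inhbb. Scaling to library size alone ended the calls of Ltbp4, Fbn1, Nbl1, Sostdc1, Nedd4l and Dlx3. Fitting without a filter ended that of Fbn1 (edgeR adjusted p = 0.0700). Of 16 alternatives, Dcn lost its call in 6 and Dlx3 in 9, including fits not named here. In RefSeq a long noncoding RNA gene overlaps Fbn1, Bmp1, Tgfbr3, Acvr1b, Fstl1, Nbl1, Dcn, Fkbp1a and Nedd4l, and without strand their reads cannot be told apart.

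**Figure D4:**
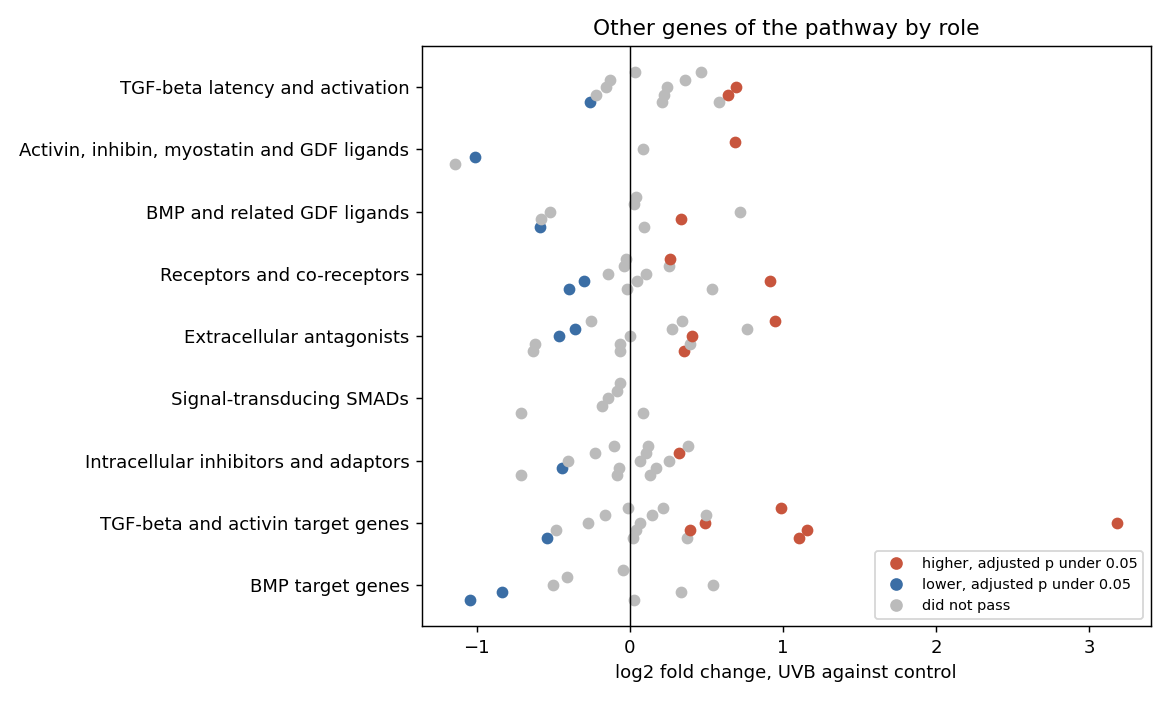
Log2 fold change, UVB against control, of the 99 tested genes of the pathway list, one row per role (vertical spread within a row has no meaning). Coloured points passed an adjusted p of 0.05 in edgeR, 16 higher and 11 lower; Timp1 at 3.18 lies farthest from 0.

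The list of latency and activation genes, some of which hold TGF-beta in the matrix or release it, had 2 of 13 called higher and 1 lower. Together these were 23.1% of the role, beside 13.0% of all genes tested. Fbn1, the fibrillin of the microfibrils that anchor latent complexes, had a log2 fold change of 0.69 (standard error 0.19, edgeR adjusted p = 0.0482), with 35.8, 45.5, 55.1 and 48.0 CPM in the controls and 96.3, 60.3 and 67.3 after UVB. Ltbp2, a latent-binding-protein family member of elastic fibres, had 0.64 (standard error 0.15, adjusted p = 0.0279). Ltbp4, whose product binds latent TGF-beta, fell by 0.26 on the log2 scale (standard error 0.067, adjusted p = 0.0328), with a control mean of 206 ± 10.2 CPM (SD, n = 4) and a UVB mean of 172 ± 10.8 (SD, n = 3). These calls were fragile. Fbn1 kept its call, among fits leaving out 1 library, only without UVB b, and its adjusted p ran from 0.00197 to 0.109 over 16 alternatives. Ltbp2 lost its call when control a, c or d, or UVB a or c was left out (0.00276 to 0.0956 over its alternatives), and Ltbp4 when control b, c or d, or UVB b or c was left out (0.00677 to 0.106).

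Other ligand genes of the activin group moved apart from each other. Inha, which encodes the inhibin alpha subunit that turns activin dimers into inhibins, measured 3.22, 3.55, 4.14 and 3.03 CPM in the controls and 1.56, 1.66 and 1.96 CPM after UVB. Its log2 fold change of -1.01 (standard error 0.20, edgeR adjusted p = 0.0130) passed in all 16 alternatives. Inhbb, which encodes the beta B subunit shared by activin B and inhibin B, measured 12.3, 11.9, 10.9 and 13.2 CPM in the controls and 18.9, 14.0 and 25.4 CPM after UVB, a log2 fold change of 0.69 (standard error 0.18, adjusted p = 0.0355). UVB b lay only just above the highest control, and the call of Inhbb was lost when control a, b, c or d, or UVB a or c was left out (adjusted p from 0.00403 to 0.0973 over 16 alternatives, 0.45 on the log2 scale without UVB c). The ratio of Inhbb to Inha TPM ran from 1.24 to 2.04 in controls and from 3.95 to 6.06 after UVB, a description formed after the values were seen. Inha and Inhbb were the only calls, 2 of the 4 tested genes of the role, beside 13.0% of all genes tested. Mstn had a log2 fold change of -1.14 (edgeR adjusted p = 0.0665) and was not called, though every UVB library lay below every control. Gdf11 (0.08, adjusted p = 0.807) was not called. Both Mstn and Gdf11 were named after their values were seen.

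In the list of BMP and related ligands, 1 of 8 tested genes was called higher and 1 lower (25.0%, beside 13.0%). Bmp6, a BMP ligand, fell to 5.53 ± 1.16 CPM (SD, n = 3) after UVB, where the controls averaged 8.33 ± 0.483 (SD, n = 4), with a log2 fold change of -0.59 (standard error 0.16, edgeR adjusted p = 0.0393). It lost its call when control b, c or d, or UVB a or b was left out (0.00928 to 0.0991 over 16 alternatives). Bmp1, higher at 0.33 (standard error 0.080, adjusted p = 0.0267), is not a ligand: it encodes a protease that trims procollagens and cleaves the BMP antagonist chordin. The call of Bmp1 was lost when control c or d, or UVB a or c was left out (0.00577 to 0.0904).

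Receptor and co-receptor genes included the steadier calls, 2 of 12 higher and 2 lower (33.3%, beside 13.0% of all genes). Eng, which encodes endoglin, a TGF-beta co-receptor of endothelium and activated stroma, measured 45.9, 30.2, 38.2 and 50.2 CPM in the controls and 85.4, 69.9 and 77.6 CPM after UVB. It had a log2 fold change of 0.92 (standard error 0.16, edgeR adjusted p = 0.0115) that passed in all 16 alternatives, but its deposited counts were whole in 0 of 7 libraries, and why was not tested, so its level is uncertain. Tgfbr3, which encodes betaglycan, the co-receptor that presents TGF-beta and inhibin, rose from 70.8 ± 3.37 CPM (SD, n = 4) to 85.1 ± 3.87 (SD, n = 3), or 0.26 on the log2 scale (standard error 0.062, adjusted p = 0.0257). Neo1, whose product neogenin binds BMP co-receptors of the repulsive guidance family, fell by 0.39 on the log2 scale (standard error 0.075, adjusted p = 0.0116), called in all 16 alternatives. Acvr1b, the activin type I receptor gene, fell by 0.30 (standard error 0.073, adjusted p = 0.0279), with a control mean of 79.5 ± 6.24 CPM (SD, n = 4) and a UVB mean of 64.5 ± 2.06 (SD, n = 3). Tgfbr3 lost its call when control c or d, or UVB b or c was left out (0.00343 to 0.0756), and Acvr1b when control b or d or any UVB library was left out (0.00675 to 0.0788).

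Of 4 endothelial markers tested, 2 were called higher (Cdh5 and Vwf), beside 13.0% of all genes tested. The summed level of endothelial markers was 24.0 to 30.4 TPM in controls and 33.2 to 40.5 TPM after UVB, with none at 0. Basal keratinocyte, fibroblast, smooth muscle, macrophage, neutrophil, mast cell and T cell markers also had calls only in the higher direction. Meibocyte, Schwann cell and melanocyte markers had calls only in the lower direction. Macrophage markers, for cells that make Tgfb1, had 2 of 6 (33.3%) called higher (Cd163 and Mrc1), beside the same 13.0%. Their summed level was 58.7 to 112 TPM in controls and 75.4 to 135 TPM after UVB, which overlapped, with none at 0. The most abundant of them, Cd68 (log2 fold change -0.41, edgeR adjusted p = 0.186) and C1qa (0.85, adjusted p = 0.114), were not called, nor were Csf1r (-0.01) and Adgre1 (0.11). Among the endothelial markers Tek (0.24, adjusted p = 0.235) and Kdr (0.46, adjusted p = 0.0564) were not called. Csf1r, Adgre1, Kdr, Vwf, Cd163 and Mrc1, and Pdgfra and Lum below, were named after their values were seen. The part of these cells in the values of Tgfb1 and Eng was not tested.

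Extracellular antagonists had 3 of 15 called higher and 2 lower (33.3%, beside 13.0% of all genes). Dcn, which encodes the collagen-binding proteoglycan decorin that also binds TGF-beta, rose from 196, 284, 304 and 293 CPM in the controls to 651, 364 and 546 CPM after UVB, a log2 fold change of 0.95 (standard error 0.22, edgeR adjusted p = 0.0290). Fstl1, a follistatin-like gene, rose by 0.35 (standard error 0.085, adjusted p = 0.0277) and Nbl1, whose product binds BMPs, by 0.40 (standard error 0.10, adjusted p = 0.0350). Sostdc1, an antagonist of BMP and WNT signals in epithelial appendages, fell by 0.36 on the log2 scale (standard error 0.092, adjusted p = 0.0333). Crim1, which tethers BMPs at the cell surface, was the fifth call, at -0.46 (adjusted p = 0.0463). Its groups overlapped, with UVB c at 34.44 CPM and control a at 34.40 CPM, and its call was not examined under the alternatives. Dcn lost its call when control b, c or d, or UVB a or c was left out (3.82e-05 to 0.0750 over 16 alternatives), and Fstl1 when control b or d, or UVB a or b was left out (0.00443 to 0.0811). Nbl1 lost it when control a, c or d, or UVB a or c was left out (0.00696 to 0.0962), and Sostdc1 in every fit that left out 1 library except that without control a (0.0111 to 0.0947).

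Signal-transducing SMAD genes had no call by edgeR in 6 tested, beside 13.0% of all genes. Of the 6, 2 (33.3%) had an unadjusted p under 0.05, beside 29.5% of all genes. DESeq2 called 1 and limma-voom 0. Smad4, the partner shared by both branches, had a mean over all libraries of 35.65 TPM, next to 35.63 TPM for Smad2. It measured 62.0, 70.0, 68.3 and 69.0 CPM in the controls and 60.7, 65.5 and 66.6 CPM after UVB (log2 fold change -0.07, 95% interval -0.21 to 0.08). Among 15 intracellular inhibitors and adaptors, 1 was called higher and 1 lower (13.3%, near the 13.0% of all genes). Fkbp1a, whose product holds type I receptors inactive, rose by 0.32 (standard error 0.068, edgeR adjusted p = 0.0178), and Nedd4l, a ubiquitin ligase for activated SMADs, fell by 0.45 on the log2 scale (standard error 0.12, adjusted p = 0.0368). Fkbp1a lost its call when control c, or UVB b or c was left out (0.000310 to 0.0561), and Nedd4l when control b, c or d, or UVB b or c was left out (0.00918 to 0.0982).

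TGF-beta and activin target genes had 6 of 18 called higher and 1 lower, with a median log2 fold change of 0.18 beside -0.0058 for all genes. The calls made up 38.9% of the role, beside 13.0% of all genes tested. Timp1, an inhibitor of matrix metalloproteinases, had the largest change of the list: 5.13, 5.88, 4.59 and 5.09 CPM in the controls and 75.7, 26.6 and 38.7 CPM after UVB, a 9.09-fold rise (log2 fold change 3.18, standard error 0.35, edgeR adjusted p = 0.00382). Every UVB library was far above the controls, and UVB a was the highest. Timp1 overlaps the gene Syn1 in RefSeq, so its count is uncertain without strand. The matrix gene Thbs2 (1.10, standard error 0.18) and the fibronectin receptor gene Itga5 (0.99, standard error 0.091) also rose, and Timp1, Thbs2 and Itga5 each passed in all 16 alternatives.

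The targets did not move as one. Fn1 (0.49, edgeR adjusted p = 0.0488) and Tagln (0.39, adjusted p = 0.0279) were also called higher. Postn, which encodes the matrix protein periostin, was called lower (-0.54, adjusted p = 0.0306). The calls of Fn1, Tagln and Postn were not examined under the alternatives. Like Crim1 and the genes of the next sentence, they were named after their values were seen. The classical target Ccn2 had a log2 fold change of 0.15 (standard error 0.24, adjusted p = 0.730), Col1a1 -0.48 (standard error 0.26, adjusted p = 0.260) and Col3a1 0.02 (standard error 0.20, adjusted p = 0.963), none of them called. Several of these genes are also markers of the cells that express them: Col1a1 and Col3a1 stood on the fibroblast list and Acta2 and Tagln on the smooth muscle list. Fibroblast markers had 3 of 6 called higher (Pdgfra, Lum and Dcn), beside 13.0% of all genes tested. Their summed level overlapped between the groups, at 943 to 1466 TPM in controls and 1241 to 1978 TPM after UVB. Dpt, a marker also named after its values were seen, was not called (0.25, edgeR adjusted p = 0.141). Dcn is itself a marker on this list. The part of fibroblasts in the changes of Dcn, Fbn1 and the matrix targets was not tested.

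BMP target genes had 0 of 8 called higher and 2 lower, with a median of -0.23 beside -0.0058 for all genes. The calls were 25.0% of the role, beside 13.0% of all genes tested. Msx2, a homeobox gene of skin appendages, measured 12.3, 10.2, 10.3 and 13.4 CPM in the controls and 5.21, 3.68 and 7.90 CPM after UVB (-1.04, standard error 0.24, edgeR adjusted p = 0.0241). Dlx3, a homeobox gene of differentiating epidermis and hair, measured 32.7, 32.6, 31.5 and 42.9 CPM in the controls and 16.4, 14.7 and 27.7 CPM after UVB (-0.83, standard error 0.23, adjusted p = 0.0482). For both genes UVB c came nearest to the controls without reaching them. Msx2 lost its call without control d (-0.96, adjusted p = 0.0631) and without UVB a (-0.99, 0.0693; 0.000401 to 0.0693 over its alternatives). Dlx3 kept it, among fits leaving out 1 library, only without UVB c (0.00151 to 0.131). The inhibitor-of-differentiation genes Id1 (named, like Id3, after its values were seen: -0.05, standard error 0.10, adjusted p = 0.796) and Id3 (0.03, standard error 0.20, adjusted p = 0.950), which respond directly to BMP, were not called. Id2 (0.33, edgeR adjusted p = 0.0693) and Id4 (-0.41, adjusted p = 0.132) lay on opposite sides of 0 and were not called. Atoh8 (0.54, adjusted p = 0.111) was not called, though every UVB library lay above every control. Id2, Id4 and Atoh8 were also named after their values were seen. Estimates above 0 were found for 3 of the 8. DESeq2 called 3 of the 8, beside 17.9% of all genes, and limma-voom 2, beside 13.2%.

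Other cell type markers also differed beside these results. The counts of calls in these short lists stand beside 13.0% of all genes tested. Of the basal keratinocyte markers, Krt14 (log2 fold change 0.47, edgeR adjusted p = 0.0173) and Itga6 (0.25, adjusted p = 0.0453) were called higher. Krt5 (-0.02), Tp63 (-0.09) and Col17a1 (-0.18) lay below 0 and were not called. Itga6, Tp63 and Col17a1 were named after their values were seen. The summed level of basal keratinocyte markers, 2 of 5 called higher, was 8061 to 10275 TPM in the controls and 10509 to 11611 TPM in the UVB libraries. Mast cell markers, 1 of 4 tested called higher, summed to 18.2 to 24.3 TPM and 30.1 to 30.2 TPM, with Mcpt1 at 0. Most of that sum came from Kit, with a control mean of 17.8 TPM and a UVB mean of 23.2 TPM. Kit was not called (log2 fold change 0.37, edgeR adjusted p = 0.0693). The call was Cpa3, with a control mean of 1.93 TPM and a UVB mean of 4.08 TPM. Neutrophil markers, 2 of 3 tested called higher, summed to 1579 to 1776 TPM and 1840 to 2115 TPM, nearly all of it from S100a8 and S100a9, which keratinocytes also express. Of these, S100a9 was called (log2 fold change 0.46, edgeR adjusted p = 0.0333) and S100a8 was not (0.14, adjusted p = 0.244). The other call was Csf3r, the receptor gene for granulocyte colony-stimulating factor, named after its values were seen, with a control mean of 0.220 ± 0.0932 CPM (SD, n = 4) and a UVB mean of 2.02 ± 1.08 (SD, n = 3; log2 fold change 3.16, adjusted p = 0.00608). Schwann cell markers, 1 of 4 called lower, summed to 93.1 to 106 TPM and 68.7 to 76.1 TPM, and melanocyte markers, 1 of 3 called lower, to 60.8 to 116 TPM and 47.6 to 55.1 TPM. Awat2 was the only call among 6 meibocyte markers, at a lower level after UVB (log2 fold change -0.66, edgeR adjusted p = 0.00453). Scd, the most abundant of them, was not called (-0.04, adjusted p = 0.879). Summed meibocyte markers overlapped between the groups, at 40956 to 49782 TPM in the controls and 37266 to 43859 TPM after UVB. Their part in the values of the ligand, receptor and target genes was not tested.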

How the data were processed

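Expression was measured by RNA sequencing of total RNA from meibomian glands, 4 control and 3 UVB libraries. The authors deposited expected counts (estimated reads per gene, 12.5% of values not whole) and TPM values scaled by the authors, which summed to 82.0% to 84.1% of a full TPM total here. Per the submitters' processing notes, FastQC, Trimmomatic, DRAGEN, Picard and the build rn7 were used. Which step each served, the gene models and whether counting used strand: not given in the sources used here. Unquoted commas in gene names shift cells, so the last 7 cells of each row were read, and 5 rows per table were left out. Pairs of libraries in a group differed beyond sampling noise (chi-square per degree of freedom at least 10.5 in 9 pairs).

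Expected counts were rounded, since the design had assumed raw counts, and tested in edgeR 4.0.16 (R 4.3.3): quasi-likelihood test, robust, TMM, filterByExpr by group, two-sided, Benjamini-Hochberg over 13709 genes, threshold 0.05. Each standard error is |log2 fold change| divided by the root of the F statistic. CPM values are TMM-normalised. The result was recomputed with DESeq2 1.42.0, with limma 3.58.1 (voom), with other scalings and filters, by limma on log2(TPM + 1) or log2(TPM + 0.1), and without each library in turn. The fits were tested on simulated data. The members and lists were chosen with earlier results of these data known. Named were all members and, per role, up to 4 called genes with the smallest p, or else the most abundant; marker lists give the 2 most abundant genes. Of 122 listed pathway symbols, 115 were found by symbol. A gene that this rule names is not reported here.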

Additional observations from a re-analysis of the deposited data

Results flagged for a closer look

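For 5 of 33 genes examined, 1 control lay far from its 3 fellow controls: the gap to the nearest, as a part of the whole control range, passed Dixon's 95% limit. Chance does this for about 1 in 20 groups, or 1.65 of 33, and groups of 3 were not examined. Control a was the high library for Inhba, at 1.73 CPM where the rest had 0.855 to 0.980 (gap 0.856). It was the low library for Bmp6, at 7.61 CPM beside 8.54 to 8.59 (gap 0.951). Control c was the high library for Fstl1, at 91.5 CPM beside 75.8 to 78.3 (gap 0.840), and for Itga5, at 23.2 CPM beside 18.9 to 19.5 (gap 0.875). Control d was the high library for Dlx3, at 42.9 CPM beside 31.5 to 32.7 (gap 0.899).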

How the results depend on the processing

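No paired analysis was possible because no column name holds a replicate number found in the labels. The number of members called was 2 under DESeq2 and ran from 0 to 1 across the fits that left out 1 library. The number of pathway genes called was 15 under log2(TPM + 1) and 15 under log2(TPM + 0.1) with a mean TPM of at least 1, 11 under log2(TPM + 1) without a filter, and 8 to 24 across the fits that left out 1 library. The cause was not tested. Smad7, near 0, changed sign under DESeq2 (0.0047), limma-voom (0.0044), DESeq2 size factors (0.0045), library size alone (0.0024) and no filter (0.0027), and ran from -0.043 to 0.058 without 1 library. Inhba ran from -0.17 to 0.34 without 1 library. Of 527 values of 33 single genes under the alternatives, 395 kept direction and side of the threshold, 119 lost the call, 1 gained it and 12 changed sign. Inhba had the lowest counts of the members, at 18 to 39 a library.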
